A study of Mus musculus with 6 samples.

Results

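The row written *Ahcyl* in the deposited expression table was followed together with 7 genes of the adenosylhomocysteinase family and the methionine cycle, *Ahcy*, *Ahcyl1*, *Ahcyl2*, *Mat2a*, *Mat2b*, *Mtr* and *Cbs*. *Ahcyl* was chosen from its values, since it was 1 of the 20 genes past the limits when tumors of *Tgm2* knockout mice were compared with tumors of wild-type (WT) mice, and the other 7 were chosen by name. The 8 genes are 8 of the 20076 rows of the table, and all 8 were among the 19667 rows tested. Bulk RNA was sequenced from primary tumors of 3 WT C57BL/6 and 3 *Tgm2* knockout mice, which lack the gene of transglutaminase 2. All 6 mice carried the same cancer cells, ID8 *Trp53*-/- *Brca1*-/-, a single mouse ovarian cancer line without *Trp53* and *Brca1*, placed in the ovarian bursa on both sides 6 weeks before the tumors were taken. According to the methods of the study the mice were 6 to 10 weeks old when used. Both lines were bred in-house, the WT line starting from Jackson Laboratory mice and the knockout line obtained from another laboratory. The knockout is in the host alone, so the cancer cells of both groups could make *Tgm2* transcripts. The titles give each tumor as a replicate mouse, and nothing else in the labels separates them, so the tumors are called WT 1 to WT 3 and KO 1 to KO 3.

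The values are normalized counts, that is, estimated reads per gene divided by a size factor for each tumor. They add up to 34.8M, 35.3M and 33.9M in total in WT 1 to WT 3 and to 32.3M, 35.8M and 37.7M in KO 1 to KO 3, and 1 read is worth between 0.938 and 1.09 normalized counts. Log2 fold changes (knockout minus WT) come from a limma fit of log2(value + 1) across all tested genes, and the limits were a Benjamini-Hochberg (BH) adjusted p-value under 0.05 and an absolute log2 fold change over 1. Because *Ahcyl* was picked from this very comparison, the 8 genes are given as a description with no p-value. In bulk tumors, fewer cells of a type and less RNA in each cell cannot be told apart.

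The methionine cycle turns methionine into S-adenosylmethionine, the methyl donor of nearly all cellular methylation. Once the methyl group has been handed on, S-adenosylhomocysteine remains, which inhibits methyltransferases until adenosylhomocysteinase splits it into homocysteine and adenosine. Homocysteine is then either remethylated to methionine or passed to transsulfuration, the route to cysteine and glutathione.

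*Tgm2* itself (chr2:158116402-158146436, minus strand of GRCm38) was lower in the tumors labelled knockout. It stood at 14978, 12155 and 13180 normalized counts in WT 1 to WT 3. In KO 1 to KO 3 it stood at 5853, 6071 and 8157. All 3 knockout tumors were lower than all 3 WT tumors, with a log2 fold change of -1.02 (standard error, SE, 0.22), which did not pass the adjustment (limma BH-adjusted p = 0.391). The labels call the samples cancer cells, and *Krt8*, an epithelial keratin, was between 10373 and 21948 normalized counts in the 6 tumors, while *Igha*, the constant gene of the IgA heavy chain, was between 4495 and 373965. WT 3 stood apart from the rest, with a median Spearman correlation of 0.946 with the other tumors across genes, against 0.959 to 0.962 for the others.

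The name *Ahcyl* matches no gene symbol in GENCODE M21 or in the gene name tables used here, and the deposited table gives no identifier beside it. GENCODE M21 does hold a protein-coding retrogene of *Ahcy* under the name *Gm4737* (chr16:46152985-46155077, minus strand of GRCm38), a copy with a single exon, and that symbol has no row in the deposited table. The row written *Ahcyl* may be this copy, but the files do not establish it. *Gm5638* and *Gm4913*, annotated as processed pseudogene copies of *Ahcy*, have no row either. *Ahcy*, the adenosylhomocysteinase of the cycle, lies at chr2:155059310-155074497 on the minus strand, 3041905 bases from *Tgm2* on the same chromosome. Over the 2086 bases that align, the *Ahcy* and *Gm4737* transcripts share 2079 bases (99.7%) with 0 gaps. Counted from 1 at the 5′ end of the *Ahcy* transcript of 2543 bases, with the *Ahcy* base first, the 7 differences are C564T, G579A, C1155T, C1173T, A1712T, G1716T and G2125A. The first 4 are in the coding part, all at the last base of a codon, and by the genetic code 0 of them change an amino acid. The 2 coding stretches that hold them are shown because reads over these bases are among those that can separate the genes. The sequences run 5′ to 3′ along the transcripts and come from GENCODE M21, and capitals mark the differing bases. The first *Ahcy* stretch crosses an intron of the gene, which the copy lacks.
Ahcy, chr2:155064858-155065563, minus strand: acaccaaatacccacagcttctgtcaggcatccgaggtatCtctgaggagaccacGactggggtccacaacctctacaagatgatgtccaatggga
Gm4737, chr16:46154499-46154594, minus strand: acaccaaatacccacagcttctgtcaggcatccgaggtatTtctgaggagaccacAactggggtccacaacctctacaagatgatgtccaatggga
Ahcy, chr2:155062208-155062306, minus strand: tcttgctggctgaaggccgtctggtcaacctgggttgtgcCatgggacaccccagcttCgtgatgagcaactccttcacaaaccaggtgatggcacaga
Gm4737, chr16:46153905-46154003, minus strand: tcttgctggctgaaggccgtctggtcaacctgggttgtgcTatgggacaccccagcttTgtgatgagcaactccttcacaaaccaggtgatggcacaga

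Of the 1994 positions at which a read of 100 bases can start in the *Gm4737* transcript, 1647 (82.6%) give a read that the *Ahcy* transcript also gives, base for base. In words of 31 bases, 95.6% of the *Gm4737* transcript occurs in transcripts of other genes, and 91 of its 2063 words occur in no other gene. For *Ahcy* 79.4% of the words are shared, and 517 occur in no other gene. GENCODE M21 lists 3 more copies as processed pseudogenes, *Gm9826*, *Gm5638* and *Gm4913*. Of the words of *Gm5638* and *Gm4913*, which have no row, 25.1% and 7.62% occur in the *Ahcy* transcript. *Gm9826* (chr1:7177739-7179037, plus strand) matches *Ahcy* at 99.2% of 1299 bases and has a row of its own, with 4.73, 19.8 and 0 normalized counts in WT 1 to WT 3 and 6.63, 7.85 and 11.9 in KO 1 to KO 3. The differing bases of *Gm4737* sit in a few places of the transcript. For single reads, the division between *Ahcy* and such a copy thus rests on a minority, 17.4% of the start positions in *Gm4737*. The values of both genes are therefore uncertain with respect to each other if the row is this copy. The reads were sequenced in pairs, and either read of a pair can separate the genes, which was not counted here.

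**Figure D1:**
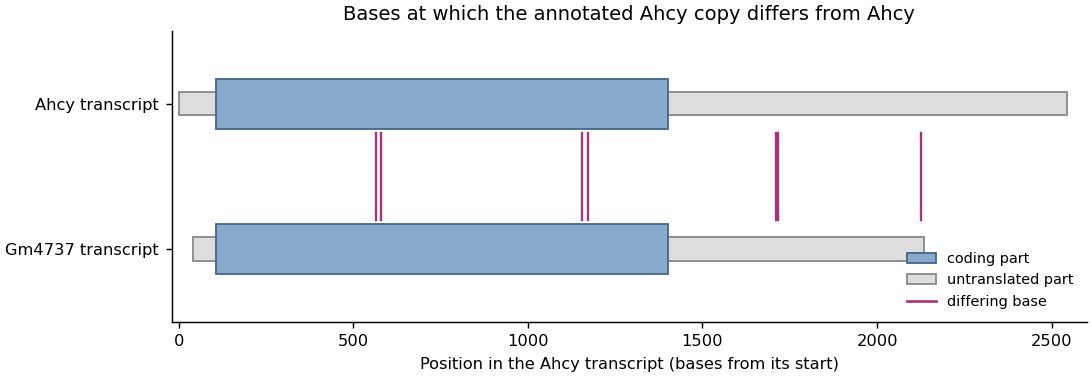
Map of the *Ahcy* and *Gm4737* transcripts of GENCODE M21 on the positions of the *Ahcy* transcript in bases, with coding parts in blue and untranslated parts in grey. The 7 vertical lines are the differing bases, 4 of them in the coding part and 3 after it, and all other aligned bases are identical.

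*Ahcyl* was the gene of the 8 with the widest separation between the groups. Its values were 318, 386 and 151 normalized counts in WT 1 to WT 3. In KO 1 to KO 3 they were 2962, 2590 and 1669. The lowest knockout tumor lay well above the highest WT tumor, with WT 3 lowest of all. The means were 285 ± 121 (SD, n = 3) and 2407 ± 666 (SD, n = 3), a log2 fold change of 3.14 (SE 0.38), or 8.81-fold. It was the 1 gene of the 8 past both limits, beside 0.102% of all tested genes, all 20 of them higher in the knockout tumors, and nothing is read from this count because it is how *Ahcyl* was chosen. The log2 fold change was 2.74 without WT 3 and between 2.97 and 3.41 without any other tumor. Among these 6 fits *Ahcyl* was past the limits in 1, the fit without WT 3. With all tumors it was past them in 6 of 11 alternative settings. Of these, the pseudocount, filter and median-of-ratios settings changed its log2 fold change little (3.09 to 3.14). It was not past the limits with equal column sums, quantile normalization, the replicate block, no variance trend or the white adipocyte covariate.

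*Ahcy*, which splits S-adenosylhomocysteine, had the highest level per kilobase of the 7 genes with an annotated length. It stood at 14949, 18033 and 10178 in WT 1 to WT 3. In KO 1 to KO 3 it stood at 9665, 16077 and 18145. The groups overlapped fully, with means of 14387 ± 3958 and 14629 ± 4422 (SD, n = 3) and a log2 fold change of 0.01 (SE 0.32). The range of *Ahcy* among tumors of one group was wider than the whole difference in *Ahcyl*, which was 2122 normalized counts between the means.

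Set against *Ahcy*, the *Ahcyl* row was a small share of the pair in WT tumors and a larger one in knockout tumors. *Ahcyl* made up 2.08, 2.10 and 1.46% of the normalized counts of both rows in WT 1 to WT 3. In KO 1 to KO 3 it made up 23.5, 13.9 and 8.42%. The shares did not overlap, with means of 1.88 ± 0.362% and 15.3 ± 7.61% (SD, n = 3). KO 1 had both the highest *Ahcyl* value and the lowest *Ahcy* value of its group, and KO 3 had the lowest *Ahcyl* and the highest *Ahcy*. In WT tumors the 2 rows had the same order, with WT 2 highest and WT 3 lowest in both. Where the 2 rows are added, the sums were 15267, 18420 and 10329 in WT tumors and 12627, 18667 and 19814 in knockout tumors. The mean of the sum was 2364 normalized counts higher in knockout tumors, of which *Ahcyl* made up 2122 and *Ahcy* 242. The sums overlapped, with SDs of 4078 and 3861, each larger than this difference, and their log2 fold change was 0.23 (SE 0.30). Whether the *Ahcyl* row reflects transcripts of a copy or a different division of *Ahcy* reads was not tested.

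**Figure D2:**
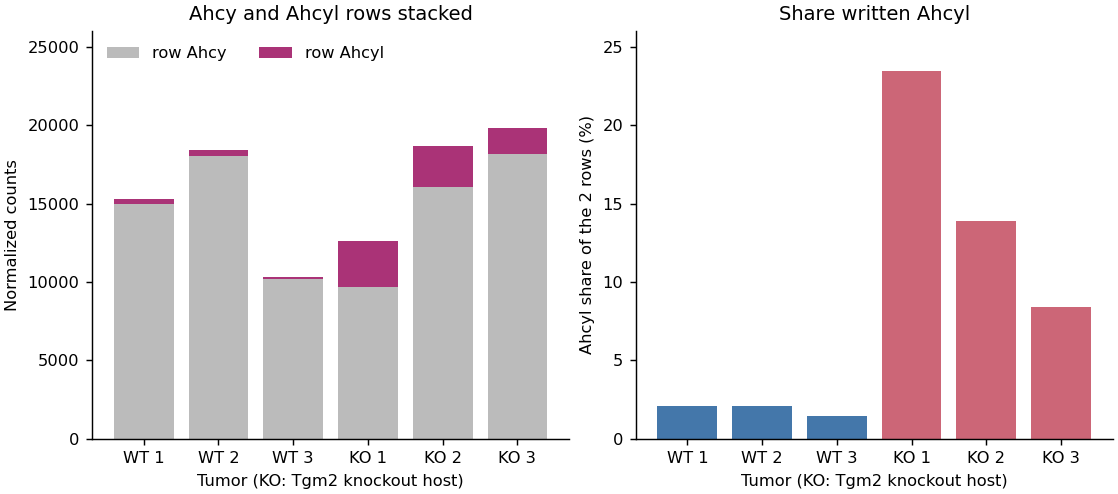
Left, normalized counts of the rows *Ahcy* and *Ahcyl* stacked for each of the 6 tumors, and right, the share of *Ahcyl* in their sum in percent, each bar being 1 tumor. The share is at most 2.10% in WT tumors and at least 8.42% in tumors of *Tgm2* knockout hosts (KO), while the stacked totals of the groups overlap.

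*Ahcyl1* and *Ahcyl2* encode relatives of adenosylhomocysteinase that are not known as enzymes of the cycle. *Ahcyl1*, also called IRBIT, binds inositol trisphosphate receptors and regulates ion transporters, and *Ahcyl2* is its long relative. *Ahcyl1* (chr3:107663118-107696560, minus strand) was 3956, 3298 and 5551 normalized counts in WT 1 to WT 3 and 4234, 3357 and 3886 in KO 1 to KO 3. *Ahcyl2* (chr6:29768011-29912310, plus strand) was 1622, 1255 and 3183 in WT tumors and 2196, 1527 and 1675 in knockout tumors. Both were highest in WT 3, and both groups overlapped. The log2 fold changes were -0.13 (SE 0.23) for *Ahcyl1* and -0.07 (SE 0.34) for *Ahcyl2*. Both turned in sign with the white adipocyte covariate, to 0.44 (SE 0.38) and 0.89 (SE 0.54). The *Ahcyl1* transcript shares 0 words of 31 bases with other genes, and the *Ahcyl2* transcript shares 4.92% of its words, all with *4930528J11Rik*. The name *Ahcyl* is thus not that of either gene in the table, which has separate rows for them.

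*Mat2a* and *Mat2b* encode the catalytic and the regulatory subunit of the methionine adenosyltransferase found outside the liver, which makes S-adenosylmethionine. *Mat2a* (chr6:72432799-72439558, minus strand) was 9396, 10724 and 18160 normalized counts in WT 1 to WT 3. In KO 1 to KO 3 it was 9031, 6865 and 7554. All 3 knockout tumors were lower than all 3 WT tumors, though KO 1 and WT 1 were close and the spread of the WT group came from WT 3. The means were 12760 ± 4723 and 7817 ± 1107 (SD, n = 3), the log2 fold change was -0.66 (SE 0.28), outside the limits, and it was -0.37 without WT 3. With the white adipocyte covariate it was -0.063 (SE 0.48). *Mat2b* (chr11:40679314-40695203, minus strand) was 3398, 5346 and 4128 in WT tumors and 3506, 4331 and 3987 in knockout tumors, with overlapping groups and a log2 fold change of -0.10 (SE 0.22). Of the *Mat2a* transcript 18.1% of the words are shared with other genes, among them *Particl*, which overlaps it on the opposite strand, so reads from the 2 strands may be mixed in its value. The *Mat2b* transcript shares none of its words.

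*Mtr* encodes methionine synthase, which remethylates homocysteine with methylfolate and cobalamin. *Mtr* (chr13:12182712-12258113, minus strand) was 1484, 1097 and 1106 normalized counts in WT 1 to WT 3 and 1412, 1185 and 1786 in KO 1 to KO 3. The groups overlapped, with a log2 fold change of 0.24 (SE 0.23).

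*Cbs* encodes cystathionine beta-synthase, which commits homocysteine to transsulfuration, and it varied far more within each group than the other members. *Cbs* (chr17:31608894-31637238, minus strand) was 51.3, 307 and 828 normalized counts in WT 1 to WT 3. In KO 1 to KO 3 it was 3178, 2371 and 58.6. Of the words of its transcript 7.42% are shared with other genes. The groups overlapped, since KO 3 was as low as WT 1, and the log2 fold change of 1.69 had an SE of 1.53. Without 1 tumor at a time it ran from 0.60, without WT 1, to 3.53, without KO 3, and it was 0.66 without KO 1, 0.88 without KO 2 and 2.59 without WT 3. The highest value was 16.1 times the lowest in WT tumors and 54.2 times the lowest in knockout tumors. Its SD of log2 values within groups was 2.67, above that of 98.6% of all tested genes, while the other 7 members had SDs from 0.26, for *Mat2b*, to 0.59, for *Ahcyl*.

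**Figure D3:**
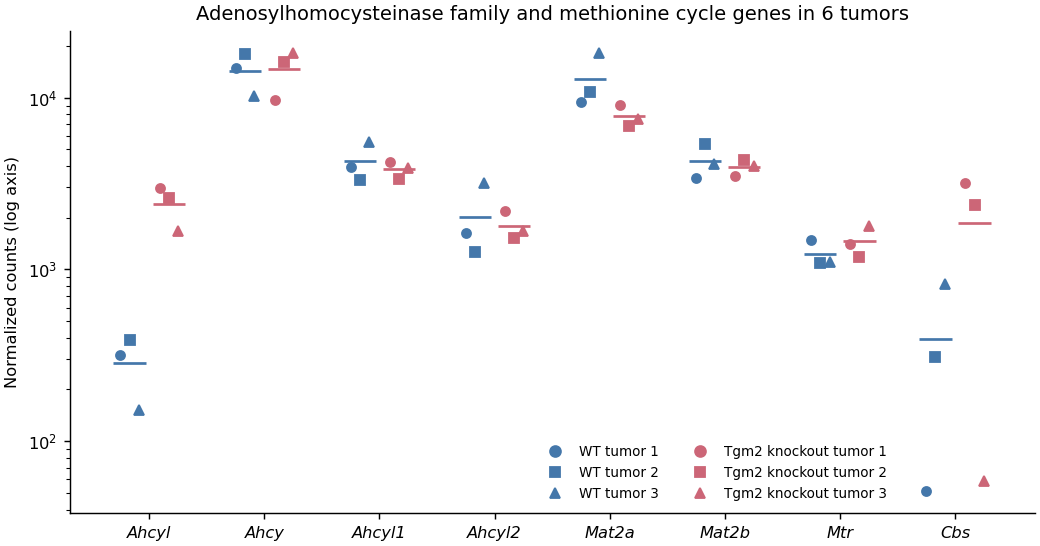
Normalized counts of the 8 genes on a log axis in the 3 WT tumors (blue) and the 3 tumors of *Tgm2* knockout hosts (red), with a marker shape for each replicate number and a line at each group mean. *Ahcyl* has its groups apart, *Mat2a* has every knockout tumor below every WT tumor, the other 6 genes overlap, and *Cbs* spans 51.3 to 3178.

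Of the 8 genes, 1 had every knockout tumor above every WT tumor (*Ahcyl*), 1 had every knockout tumor below (*Mat2a*) and 6 overlapped, beside 5.18% of all tested genes without overlap upward and 5.33% downward. The median log2 fold change of the 8 was -0.03, and that of all tested genes was -0.03. Per kilobase of the longest protein-coding transcript, levels in WT tumors ran from *Ahcy* at 5657 ± 1556 (SD, n = 3) normalized counts through *Mat2a* at 3767 ± 1395, *Mat2b* at 2090 ± 480, *Ahcyl1* at 1105 ± 299.9, *Ahcyl2* at 392 ± 199 and *Mtr* at 148 ± 26.7 to *Cbs* at 63.5 ± 63.5. The neighbours *Ahcy* and *Mat2a* overlapped across WT tumors on this scale, as did *Mtr* and *Cbs*, and the other neighbours did not. In knockout tumors the first 5 genes kept this order, with *Mat2a* at 2308 ± 327 overlapping *Mat2b* at 1920 ± 202, and the wide range of *Cbs*, 300 ± 260, overlapped *Ahcyl2* and *Mtr*. *Ahcyl* has no annotated length here and stands outside this order.

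The neighbouring pathways were described with 106 further genes in 10 lists, all 106 of which were tested. Of these, 0 were past the limits in either direction in the limma fit. At an unadjusted p-value under 0.05 there were 5 (4.72%), 4 of them higher and 1 lower in knockout tumors, beside 5.78% of all tested genes. Groups did not overlap for 8 of the 106 (7.55%), 5 higher and 3 lower, beside 10.5% of all tested genes. The median log2 fold change was 0.00, with 53 genes above 0 and 53 below.

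In the folate one-carbon list, whose enzymes supply the methyl group that *Mtr* uses, 2 of 17 genes had an unadjusted p-value under 0.05. Over all tested genes the share was 5.78%. *Aldh1l1*, which oxidises formyl-tetrahydrofolate and is known from liver and astrocytes, was 159, 228 and 181 normalized counts in WT 1 to WT 3 and 428, 909 and 639 in KO 1 to KO 3. These groups did not overlap, and the log2 fold change was 1.74 (SE 0.35, limma BH-adjusted p = 0.302), the lowest adjusted p of the 106 genes. It was 0.66 (SE 0.49) with the mean of the white adipocyte markers as a covariate. *Shmt1*, the cytosolic serine hydroxymethyltransferase, was 1099, 971 and 1284 in WT tumors and 828, 578 and 765 in knockout tumors. All 3 knockout tumors were lower than all 3 WT tumors, with a log2 fold change of -0.63 (SE 0.23, limma BH-adjusted p = 0.795). The same covariate brought it to -0.053 (SE 0.36). The most abundant gene of the list (by mean normalized count, with no correction for length, as in the other lists), *Atic*, which catalyses the last steps of purine synthesis, had a log2 fold change of 0.15 (SE 0.23).

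Other parts of the cycle showed overlapping groups. In the list of further cycle genes 0 of 8 were without overlap, beside 10.5% of all tested genes. *Mtap*, which salvages methylthioadenosine, was its most abundant gene, at 6543 ± 2078 (SD, n = 3) normalized counts in WT and 5741 ± 1079 in knockout tumors, and *Adk*, the kinase that clears the adenosine made by adenosylhomocysteinase, was 1585 ± 258 and 1583 ± 97.8. *Mat1a*, the methionine adenosyltransferase of the liver, and *Bhmt*, the liver enzyme that remethylates homocysteine with betaine, were low in all 6 tumors, at most 21.2 and 30.2. These 3 genes were named after their values were seen.

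Homocysteine leaves the cycle through transsulfuration, where 1 of 10 genes had an unadjusted p-value under 0.05, beside 5.78% of all tested genes. This gene was *Cdo1*, cysteine dioxygenase, at 236, 681 and 1097 normalized counts in WT 1 to WT 3 and 731, 3577 and 2224 in KO 1 to KO 3. Its groups overlapped, and its log2 fold change was 1.68 (SE 0.68, limma BH-adjusted p = 0.819), with 1.06 without WT 1, 2.33 without KO 1 and -0.19 with the mean of the white adipocyte markers as a covariate. *Gss*, glutathione synthetase, was the most abundant of the list, with a log2 fold change of -0.39 (SE 0.29).

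The list of methionine and purine transport holds transporters and the enzyme gene *Ada*. It had 2 of 8 genes with an unadjusted p-value under 0.05, both higher in knockout tumors. Groups did not overlap for 3 of the 8, 2 of them higher and 1 lower, and *Ada* is in both counts. The shares over all tested genes were 5.78% and 10.5%, and nothing is read from counts in so short a list. *Slc43a2*, a transporter of large neutral amino acids, was 1237, 734 and 827 normalized counts in WT tumors and 1210, 1600 and 1696 in knockout tumors, with a log2 fold change of 0.71 (SE 0.26, limma BH-adjusted p = 0.796). *Ada*, which deaminates adenosine and was named after its values were seen, was 196, 195 and 241 in WT tumors and 325, 399 and 358 in knockout tumors, with a log2 fold change of 0.78 (SE 0.28, limma BH-adjusted p = 0.798). WT 1 reached the knockout range for *Slc43a2*, and no WT tumor did for *Ada*. *Slc38a2*, an amino acid transporter and the most abundant gene of the list, had a log2 fold change of -0.02 (SE 0.25).

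The remaining 6 lists held no gene at an unadjusted p-value under 0.05. Of the 20 methyltransferases, which use the product of *Mat2a* and *Mat2b*, 0 had groups without overlap, and *Ehmt2*, a histone methyltransferase, was the most abundant with a log2 fold change of -0.23 (SE 0.24). Groups did not overlap for 1 of 11 folate and cobalamin uptake genes and 0 of 7 serine and glycine genes. They did not overlap for 1 of 13 polyamine and methionine salvage genes and 1 of 5 betaine and choline oxidation genes. For the partners of *Ahcyl1* and *Ahcyl2* the count was 0 of 7, and the share over all tested genes was 10.5%. The most abundant genes of these lists were *Folr1*, a folate receptor, at a log2 fold change of -0.25, *Phgdh*, the first enzyme of serine synthesis, at 0.38, *Odc1*, the first enzyme of polyamine synthesis, at -0.08, *Aldh7a1*, which oxidises betaine aldehyde among other substrates, at 0.33, and *Rrm1*, the large subunit of ribonucleotide reductase, at 0.26.

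**Figure D4:**
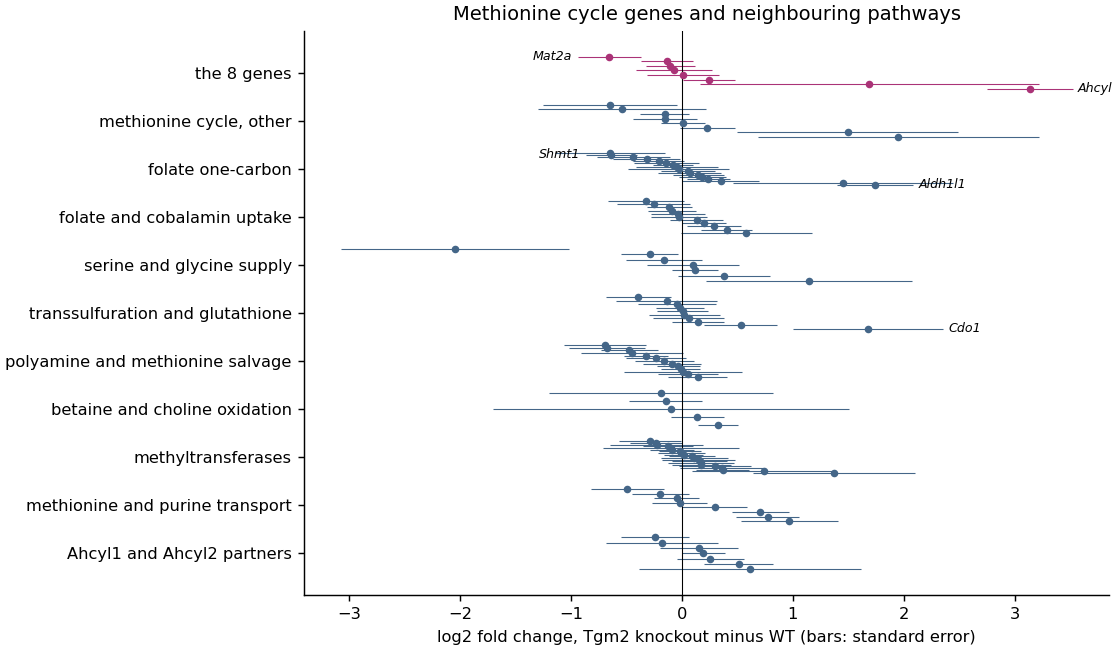
Log2 fold change (knockout minus WT) with its standard error for the 8 genes (purple) and for the 106 genes of the 10 neighbouring lists (blue), 1 point for each gene. *Ahcyl* at 3.14 lies furthest from 0, and *Aldh1l1*, the neighbour with the lowest adjusted p-value, lies at 1.74.

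Genes with a pattern close to that of *Ahcyl* were ranked by the root-mean-square difference of centred log2 values over the 6 tumors, among 14091 tested genes with a mean of at least 50 normalized counts. Nearest was *Abcd2*, a peroxisomal fatty acid transporter, at a difference of 0.50. It was 146, 164 and 76.9 normalized counts in WT 1 to WT 3 and 570, 684 and 495 in KO 1 to KO 3. *Serpina3c* followed at 0.52, *Lep*, the adipocyte hormone leptin, at 0.53, *Cd79a*, a subunit of the B cell receptor, at 0.56 and *H2-Eb2*, a class II antigen gene, at 0.61. All 5 had WT 3 as the lowest tumor, like *Ahcyl*, and since the ranking used the comparison that chose *Ahcyl*, it is a description.

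Markers of other cell types are given beside these values, since the plasma cell sums did not overlap between the groups and the adipocyte sums had a higher knockout mean. The 12 white adipocyte markers summed to 53184, 66571 and 39951 normalized counts in WT 1 to WT 3 and to 57470, 211930 and 127648 in KO 1 to KO 3, with *Lpl* as the most abundant, 6 of the 12 higher without overlap and 1 past the limits. These sums overlapped, since WT 2 was above KO 1. The 10 plasma cell markers summed to 29106, 29715 and 33978 in WT tumors and to 381357, 430603 and 760387 in knockout tumors, with *Igha* as the most abundant, 9 of the 10 higher without overlap and 4 past the limits. The 6 leukocyte markers, led by *Laptm5*, summed to 26312, 18079 and 14577 in WT tumors and 19104, 33824 and 37288 in knockout tumors. These sums also overlapped, with 1 of the 6 higher without overlap and 0 past the limits. Beside these counts, 5.18% of all tested genes were higher without overlap and 0.102% were past the limits. The part of these cells in the values of *Ahcyl*, *Aldh1l1* and *Cdo1* was not tested.

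The sums of the other lists overlapped between the groups. The 8 epithelial and mesothelial markers, led by *Wt1*, summed to between 58618 and 82327 normalized counts over the 6 tumors. Of these 8, 2 were lower in knockout tumors without overlap, beside 5.33% of all tested genes. The 8 granulosa and luteal markers, led by *Star*, summed to between 7457 and 23129 in 5 tumors and to 66593 in KO 1. The 6 proliferation markers, led by *Pcna*, summed to between 13939 and 35965, lowest in WT 3. Within the granulosa and luteal list the steroid synthesis genes *Hsd3b1* and *Cyp11a1* were highest in KO 1, at 25704 and 22480, and next in WT 1, at 5526 and 8648, whereas *Star* was 5340 in KO 1 and 5987 in WT 1, inside the range of the other tumors. The part of such cells in the values of the 8 genes was not tested. Liver expresses much of this pathway, and of 7 hepatocyte markers 5 were in the table, where *Alb*, the albumin gene, was at most 23.7. *Cyp2e1*, which adipose tissue also expresses, was the highest hepatocyte marker, between 350.1 and 5715.

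*Cbs* had the same 2 lowest and 2 highest tumors as 7 of 11 markers of the oviduct and of ciliated epithelium, a list that was added after the values were seen. Its 11 genes summed to 669, 8613 and 19733 normalized counts in WT 1 to WT 3 and to 41876, 61531 and 797 in KO 1 to KO 3. The most abundant, *Ovgp1*, the oviductal glycoprotein, was 184, 6552 and 9244 in WT tumors and 37108, 55944 and 91.0 in knockout tumors. *Foxj1*, the regulator of motile cilia, was 20.8, 228 and 83.1 in WT tumors and 1135, 1938 and 31.2 in knockout tumors. WT 1 and KO 3 were thus the 2 lowest tumors for *Cbs*, *Ovgp1*, *Foxj1* and the sum of the list, and KO 1 and KO 2 were the 2 highest. The other 4 genes of the list had another order. *Pax8*, a transcription factor of oviduct epithelium, was 40.9, 169 and 1905 in WT tumors and 437, 380.3 and 122 in knockout tumors, and *Epcam*, an epithelial adhesion gene, was 90.5, 959 and 8047 in WT tumors and 1307, 1063 and 201 in knockout tumors, both highest in WT 3. *Rsph1*, a gene of the cilium's radial spokes, was lowest in WT 3 at 237, and *Dnah9*, a dynein of cilia, was highest in KO 1 and KO 2 but lowest in WT 1 and WT 3. By the same measure of likeness the genes nearest to *Cbs* were *Ugt1a1* at 0.40, *Dnah12*, a dynein of cilia, at 0.55, *Ubxn10* at 0.56, *Kndc1* at 0.70 and *Atp13a5* at 0.77. The part of such cells in the *Cbs* values was not tested.

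**Figure D5:**
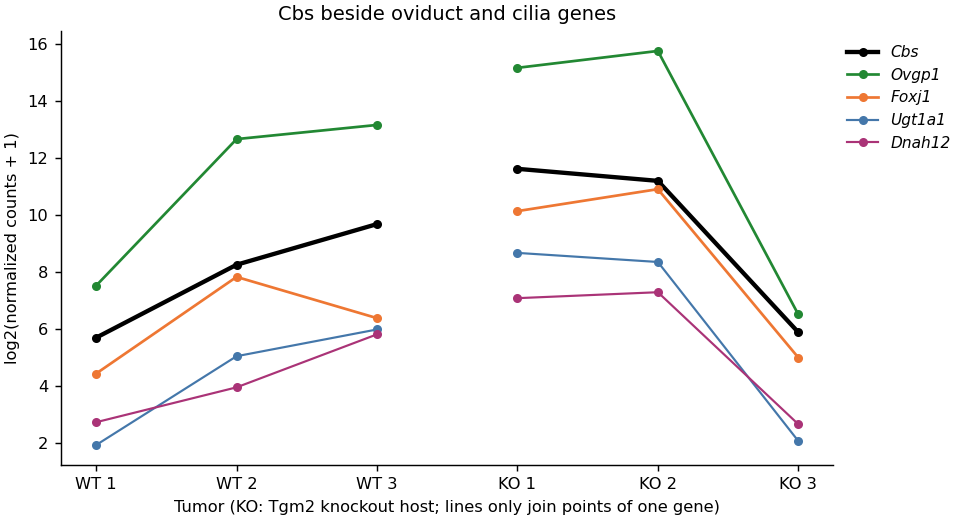
Log2(normalized counts + 1) of *Cbs*, *Ovgp1*, *Foxj1*, *Ugt1a1* and *Dnah12* in each of the 6 tumors (KO, tumors of *Tgm2* knockout hosts), with lines that only join the points of a gene within a group. All 5 genes are lowest in WT 1 and KO 3 and highest in KO 1 and KO 2. *Ugt1a1* and *Dnah12* were chosen as the 2 genes nearest to *Cbs*. *Ovgp1* and *Foxj1* are from the 7 of 11 listed markers with this order, so the agreement follows from the choice. The listed markers *Pax8*, *Epcam*, *Rsph1* and *Dnah9* had another order and are not shown.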

How the data were processed

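RNA from 3 WT and 3 *Tgm2* knockout tumors was compared. The authors deposited 1 table whose signal is an estimated count per gene divided by a size factor (a normalized count), made by kallisto and estimateSizeFactors of DESeq2 after removal of genes with low expression. The submitters' processing notes name kallisto 0.46.2 and GRCm38. The table is labelled TPM, but its columns differ in their sums, so it was not treated as TPM, and since its values are not whole no count model was fitted. Reads shared by near-identical transcripts are divided by kallisto by estimation, which bears on *Ahcy* and its copies.

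Genes reaching a value of 1 in 3 or more tumors were kept, a pseudocount of 1 was added, which understates changes of low values, and log2 values were fitted with limma 3.58.1 in R 4.3.3 (trend of variance on mean, no covariate, two-sided, Benjamini-Hochberg over all tested genes). The fit was tested on simulated data. A comparison of 3 tumors with 3 cannot give an exact permutation p-value below 0.1. Transcript comparisons used GENCODE M21 with Python 3.11.15 and Biopython 1.88, and genes were matched by symbol.

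The 8 genes, the lists and the tests were chosen with earlier results of these data known. Named were all 8 genes, from each other list every gene past the limits, the most abundant gene and the gene with the smallest unadjusted p-value under 0.05 in each direction, *Tgm2*, the 5 genes most like *Ahcyl* and the most abundant marker of each cell type. Other genes were named after their values were seen. Values of 1 listed gene are not reported here. Alternatives changed the pseudocount, filter, scaling, variance trend, weights, fold change limit, replicate block and adipocyte covariate, summed *Ahcyl* with *Ahcy*, and left out each tumor in turn.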

Additional observations from a re-analysis of the deposited data

How the results depend on the processing

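The log2 fold change of *Ahcyl* stayed between 2.74 and 3.41 over all alternatives that kept it as a row, and its sum with *Ahcy* gave 0.23. *Ahcyl* was past the limits in 6 of 11 alternatives that used all tumors, and not with equal column sums, quantile normalization, no variance trend, the replicate block or the white adipocyte covariate. The count of genes past the limits was 20, all higher. It was 4 without the variance trend and 0 with the adipocyte covariate, which leaves fewer degrees of freedom, and with 1 tumor left out it ran from 2 to 14 higher and from 0 to 1 lower. With the replicate block it was 5. The labels give no pairing of tumors by replicate number. Same-numbered tumors correlated at -0.20, 0.28 and -0.31 in their deviations from group means. So few values cannot settle whether the tumors were paired.

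With the adipocyte covariate, the median of all tested genes moved from -0.03 to 0.08. The sign turned for *Ahcy* (-0.98), *Ahcyl1* (0.44) and *Ahcyl2* (0.89), and the log2 fold changes were -0.063 for *Mat2a*, -0.55 for *Mat2b* and 2.89 for *Cbs* (SE 3.09). *Aldh1l1* moved to 0.66, *Shmt1* to -0.053, *Gss* to -1.45, *Folr1* to -1.31, *Odc1* to -0.80 and *Mtap* to -0.78. The sign also turned for *Atic* (-0.13), *Phgdh* (-0.54), *Cdo1* (-0.19), *Ehmt2* (0.19), *Slc38a2* (0.13) and *Rrm1* (-0.34). The cause was not tested. With 1 tumor left out the sign turned within the ranges -0.22 to 0.29 for *Ahcy*, -0.30 to 0.076 for *Ahcyl1*, -0.35 to 0.32 for *Ahcyl2*, -0.26 to 0.068 for *Mat2b*, -0.45 to 0.022 for *Mtap*, -0.019 to 0.30 for *Atic*, -0.57 to 0.061 for *Folr1*, -0.058 to 0.71 for *Phgdh*, -0.31 to 0.12 for *Odc1*, -0.26 to 0.12 for *Slc38a2* and -0.025 to 0.42 for *Rrm1*.

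Genes of a few normalized counts, such as *Mat1a*, *Bhmt* and *Gm9826*, rest on a few reads.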
